A study of Drosophila melanogaster with 2 samples.

Results

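The genes of the secretory pathway described here are those of the coats, the adaptors, the Rab, Arf and Arl GTPases, the signal recognition particle, the translocon and the Vps sorting complexes. They were found by a rule on their current gene symbols, which itself uses no measured value. Of 124 genes that a RefSeq gene table lists under those symbols, 97 had a probe set with a single gene name on the array and are the members, out of 10827 named genes. The other 27 were not analysed here. Messenger RNA was measured in homozygous *mid* mutant embryos and in *yw* embryos, with 1 Affymetrix *Drosophila* array per genotype. *mid* encodes the T-box transcription factor Midline. The allele is not given in the labels, and the mutants were told apart by the *CyOact-GFP* balancer chromosome. The labels name *yw*, a laboratory stock mutant for *yellow* and *white*, as the control, although heterozygous *mid* embryos are what the Methods describe. Whole embryos of both genotypes were collected 16 h after laying, at 25 °C. With different stocks, genetic background and an effect of *mid* cannot be told apart.

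Secreted and membrane proteins enter the endoplasmic reticulum (ER) through the Sec61 channel, after the signal recognition particle (SRP) has brought their ribosomes to its receptor. COPII vesicles carry them towards the Golgi, COPI vesicles bring escaped residents back, and clathrin with its adaptors sorts them at the Golgi and the plasma membrane. Small GTPases of the Rab, Arf and Arl families mark the compartments, and Vps proteins sort endosomal cargo for recycling or for degradation. In late embryos this traffic carries cuticle, collagen and the contents of the salivary gland, among others.

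Values are signals from the MAS5 algorithm, linear intensities that combine the probes of a probe set. As deposited, the median over 14010 probe sets was 43.3 on the *mid* array and 150 on the *yw* array, so the *mid* array was multiplied to the *yw* median. Signals at or under 97.6, the 40th percentile of both arrays together, were treated as lying at a floor, which is not a detection call. The floor was exceeded by 59.7% of probe sets in *mid* and by 60.3% in *yw*. Where 1 of the signals lay at the floor, only a lower bound of the fold change is given, and where both did, none is. With 1 array per genotype there is no replicate error and no p-value. Genes are called by size alone, at more than 2-fold. As a scale for technical disagreement, the log2 fold changes that separate probe sets gave for 1 gene varied with an SD of 0.53, over 291 genes. The signal of *mid* itself was 56.8 in *mid* and 49.3 in *yw*, under the floor in both, so it cannot serve to check the genotype. Of 4 control transcripts, 3 had more 3′ signal per 5′ signal in *mid* than in *yw* (actin 53.5 against 28.8), and GAPDH had less (17.3 against 21.6). The arrays held whole embryos, so fewer cells of a type and less RNA per cell cannot be told apart.

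Most secretory pathway genes had signals within 2-fold in *mid* and *yw* embryos. Of the 97 genes, 91 were measured, meaning that 1 array or both exceeded the floor, and for 80 of them both did. Of those 80, 77 lay within 2-fold, and the 11 genes measured on 1 array had lower bounds under 2-fold, which do not show how large their differences were. Within 1.5-fold lay 64 of the 80 (80%), where 72.6% of all genes above the floor on both arrays did. More than 2-fold higher in *mid* were 3 genes, *RabX4*, *Vps29* and *Sec20*, or 3.3% of those measured, where 5.65% of all measured genes were higher. None was more than 2-fold lower, where 4.53% of all measured genes were lower. Log2 fold changes were above 0 for 49 members and below 0 for 42, with a median of 0.03 against 0.06 for all measured genes. The 3 higher genes were only just past the threshold, at 2.05 to 2.19-fold, and *Rab26* lay just under it at 1.98-fold. None of the 3 was more than 2-fold higher once the spiked controls set the scale, with all measured genes then at a median of -0.24, and only *RabX4* was after quantile normalisation or loess.

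**Figure D1:**
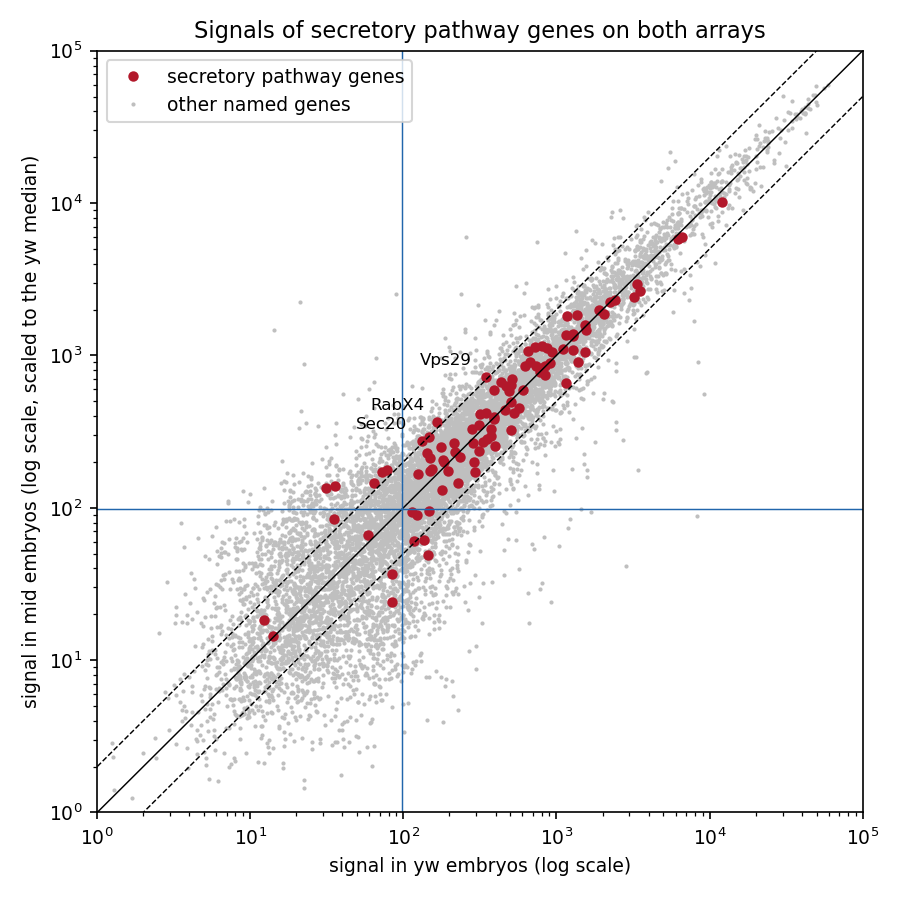
Signal in *mid* embryos (vertical axis, scaled to the *yw* median) against signal in *yw* embryos (horizontal axis), both on log scales, for the 97 secretory pathway genes (red) and the other named genes (grey), 1 array per genotype. Blue lines mark the floor of 97.6, the solid line equal signal and the dashed lines 2-fold differences. Most of the red points lie between the dashed lines. *RabX4*, *Vps29* and *Sec20* lie above the upper one, as do *Rab3*, *RabX2*, *Vps13B*, *Vps33B*, *Vps53* and *Sec16*, which are at the floor in *yw* or on both arrays, while *Rab23*, *Vps45*, *RabX6* and *Sec15*, at the floor in *mid* or on both, lie below the lower one.

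The difference between the members and other genes varied with brightness. Genes above the floor on both arrays were divided into 3 bands of equal size by their mean signal over both arrays. In the bright band, above 724, the 35 secretory pathway genes had a median absolute log2 fold change of 0.18, against 0.30 for 2088 other genes, and 0 of the 35 differed by more than 2-fold, against 7.28% of the other genes. In the middle band (276 to 724) the medians were 0.32 for 24 members and 0.36 for 2099 other genes. More than 2-fold different were 4.17% of those members (1 gene) and 10.4% of the other genes. In the dim band the medians were 0.41 for 21 members and 0.37 for 2103 other genes, with 9.52% (2 genes) and 9.08% more than 2-fold different. The members lay below the other genes in the bright band and slightly above them in the dim one, as a description without a test.

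**Figure D2:**
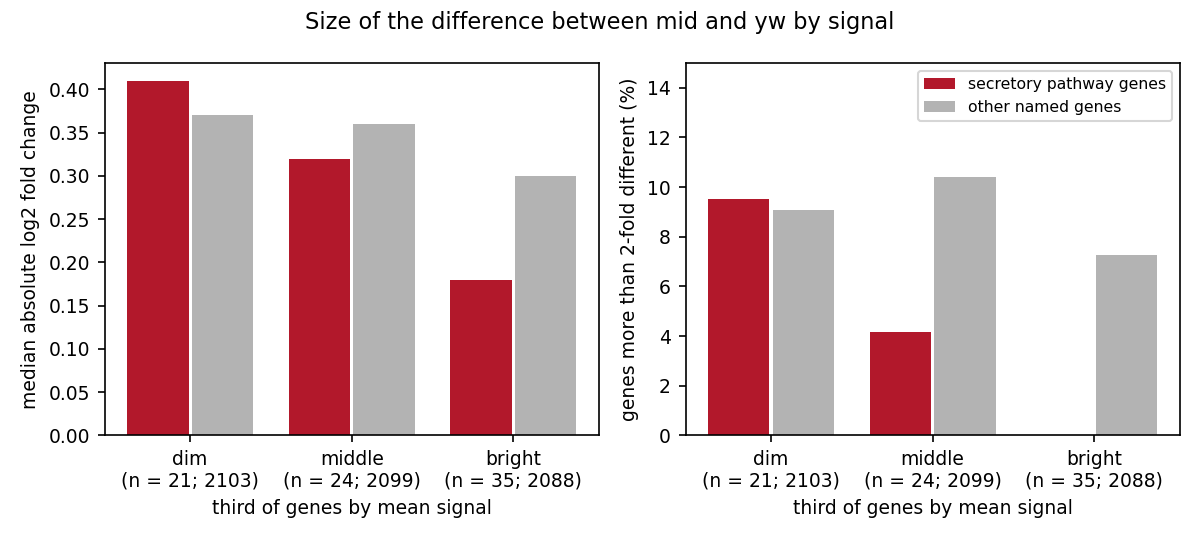
Median absolute log2 fold change (left) and percentage of genes more than 2-fold different (right) for secretory pathway genes (red) and other named genes (grey), in 3 bands of mean signal, with the number of genes of each kind under the bars. In the bright band the red bars are lower, at 0.18 against 0.30 and at 0 against 7.28%.

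Genes of the first step, targeting to the ER, were all above the floor on both arrays, and none was more than 2-fold different. *Srp9* read 1108 in *mid* and 1096 in *yw*. *Srp72* read 1332 in *mid* and 1276 in *yw*, and *Srp68*, whose product forms a dimer with that of *Srp72*, read 1366 in *mid* and 1162 in *yw*. For each of these 3 genes of the particle, the arrays differed by no more than 1.18-fold. *Srp14*, whose product pairs with Srp9 to slow elongation, read 1064 in *mid* and 650 in *yw* (1.64-fold higher). *Srp54k*, which encodes the GTPase that binds the signal sequence, lay on the other side, with 323 in *mid* and 508 in *yw*, a log2 fold change of -0.65. *Srp19* read 1090 in *mid* and 1281 in *yw*. *SrpRalpha*, the receptor subunit that docks the particle, read 892 in *mid* and 907 in *yw* on the brighter of its probe sets, and 129 in *mid* with the floor in *yw* (79.4) on the dimmer. The log2 fold changes of *Srp14* and *Srp54k* lay 1.36 apart, a gap that no rescaling of a whole array can change.

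The 4 translocon genes all lay within 1.5-fold, where 72.6% of all genes above the floor on both arrays did. *Sec61alpha*, the channel itself, read 6003 in *mid* and 6611 in *yw*, and *Sec61beta* read 5790 in *mid* and 6202 in *yw*. *Sec61gamma* read 1985 in *mid* and 1904 in *yw*. The 3 subunits differed from each other by no more than 0.20 in log2 fold change. *Sec63*, a membrane-bound co-chaperone of the channel, read 417 in *mid* and 345 in *yw*. Of the folding enzymes of the ER lumen, *CaBP1* read 594 in *mid* and 609 in *yw*. *Pdi*, protein disulfide isomerase, read 2657 in *mid* and 3529 in *yw* (log2 fold change -0.41).

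At ER exit, 5 of 6 genes were measured and all 5 lay within 1.5-fold, beside 72.6% of all genes above the floor on both arrays. *Sec13*, an outer coat subunit that is also a nuclear pore protein, read 2424 in *mid* and 3197 in *yw*. *Sec31*, its partner in the outer COPII coat, read 900 in *mid* and 676 in *yw*, so the coat partners lay on opposite sides, 0.81 apart. The cargo-binding subunits were close, *Sec24AB* with 268 in *mid* and 283 in *yw* and *Sec24CD* with 271 in *mid* and 330 in *yw*. *Tango1*, required for the export of collagen and other bulky cargo, read 1051 in *mid* and 929 in *yw*. *Sec16*, the scaffold of ER exit sites, was at the floor on both arrays by both of its probe sets, the brighter with 83.9 in *mid* and 35.3 in *yw*.

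COPI coat genes went both ways. *betaCOP* read 1811 in *mid* and 1176 in *yw* (1.54-fold), *deltaCOP* read 674 in *mid* and 434 in *yw* (1.55-fold), and *alphaCOP* read 854 in *mid* and 622 in *yw* (1.37-fold). *gammaCOP* was level, with 2304 in *mid* and 2400 in *yw*, and *epsilonCOP* read 416 in *mid* and 530 in *yw*. These 5 subunits of a coat that is recruited to membranes as a whole spanned 0.98 in log2 fold change. *Sec71*, an exchange factor that activates Arf, read 853 in *mid* and 734 in *yw*. The cargo receptors of this route were close to equal on the arrays. *KdelR*, which returns ER residents, read 1384 in *mid* and 1282 in *yw*, while the p24 genes *bai* and *opm* read 1595 and 207 in *mid* and 1525 and 182 in *yw*.

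**Figure D3:**
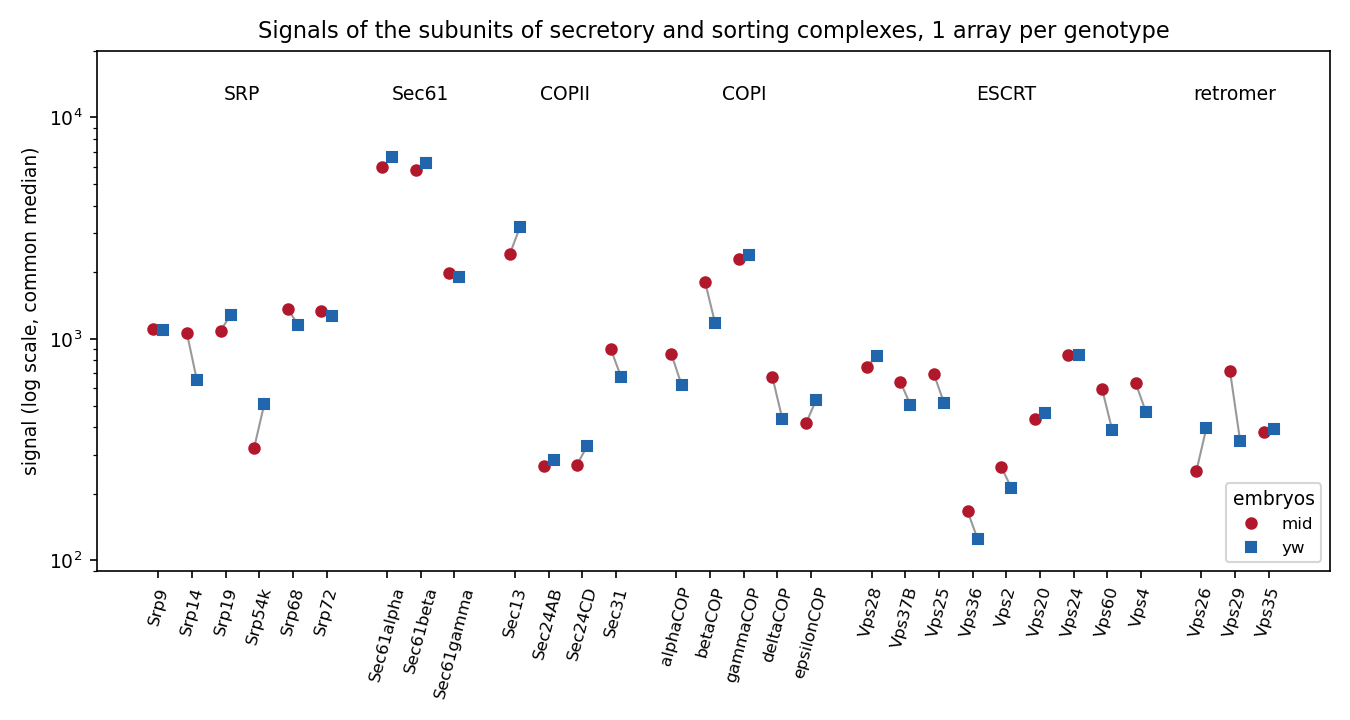
Signals (log scale, arrays at a common median) of subunits of SRP, the Sec61 channel, the COPII and COPI coats, ESCRT and retromer, with *mid* as red circles and *yw* as blue squares, 1 array per genotype. The Sec61 pairs nearly coincide, and in retromer *Vps29* is higher in *mid* (717 against 348) while *Vps26* is lower (253 against 397).

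The 8 member genes of clathrin and its AP-1 and AP-2 adaptors were measured on both arrays. All lay within 1.5-fold, where 72.6% of all genes above the floor on both arrays did. *Chc*, the heavy chain, read 1839 in *mid* and 1362 in *yw*. *Clc*, the light chain, read 2950 in *mid* and 3345 in *yw*. Of AP-1, which acts at the Golgi, *AP-1gamma* read 351 in *mid* and 314 in *yw*, and *AP-1sigma* read 298 in *mid* and 375 in *yw*. Of AP-2, which acts at the plasma membrane, *AP-2alpha* read 410 in *mid* and 315 in *yw*. *AP-2mu*, which reads sorting signals in cargo tails, read 822 in *mid* and 803 in *yw*. *AP-2sigma* read 1469 in *mid* and 1569 in *yw*, and *AP-1-2beta*, shared by both adaptors, read 1874 in *mid* and 2049 in *yw*. Of the 6 adaptor genes, 3 were above 0 and 3 below in log2 fold change.

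Of 21 Rab GTPase genes, 18 were measured, 1 was more than 2-fold higher in *mid* and none was lower. The 1 gene is 5.56% of those measured, beside 5.65% of all measured genes. *RabX4* read 365 in *mid* and 166 in *yw* (2.19-fold). *Rab26*, linked in mammals to vesicles of secretory and nerve cells, read 290 in *mid* and 146 in *yw* (1.98-fold). *Rab3*, which acts in the release of synaptic vesicles, read 171 in *mid* and was at the floor in *yw* (73), at least 1.76-fold higher. *Rab27*, a Rab of regulated secretion, was level with 395 in *mid* and 388 in *yw*. Of 4 measured neuron markers, *elav*, *fne* and *Ace* were more than 2-fold higher in *mid*, beside 5.65% of all measured genes. The count was 2 of 4 with quantile normalisation (beside 4.67%) or loess (4.71%), and *fne* alone was higher with the spiked controls (2.64%). The summed signal over the list was 2445 in *mid* and 1242 in *yw*, although *brp* and *futsch* were at the floor on both arrays. The part of neuronal content in the values of these Rab genes was not tested. Of the Rab3 regulators, *Rab3-GEF*, the exchange factor, went the other way from *Rab3*, with 145 in *mid* and 229 in *yw*. *Rab3GAP1*, which encodes the catalytic subunit of a Rab3 GTPase-activating protein, read 213 in *mid* and 149 in *yw* on the brighter of its probe sets. The dimmer was at the floor in *mid* (50.3) with 110 in *yw*, so no direction is given. *Rab3-GAP*, the other subunit, read 215 in *mid* and 236 in *yw*.

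No other Rab gene measured on both arrays differed by more than 2-fold, and several were nearly level. *Rab2*, of the early secretory pathway, read 779 in *mid* and 786 in *yw*. *Rab18*, found on the ER and on lipid droplets, read 2250 in *mid* and 2240 in *yw*. *Rab10*, which acts in basolateral secretion, read 10173 in *mid* and 11994 in *yw* by its brighter probe set and 142 in *mid* and 138 in *yw* by its other one. *RabX1* read 493 in *mid* and 504 in *yw*. Somewhat higher in *mid* were *Rab40* (230 in *mid* and 143 in *yw*, 1.6-fold), *Rab14*, of endosomes and phagosomes (1119 in *mid* and 862 in *yw*), and *Rab39* (327 in *mid* and 280 in *yw*). *Rab32*, which acts in the making of pigment granules and other lysosome-related organelles, read 903 in *mid* and 1393 in *yw* (log2 fold change -0.62), and *Rab35*, of recycling at the plasma membrane, read 131 in *mid* and 179 in *yw*. *Rab19* read 452 in *mid* and 571 in *yw*, and *Rab30* read 174 in *mid* and 197 in *yw*. *Rab23*, a regulator of planar polarity, was at the floor in *mid* (48.7) and read 144 in *yw*, and *Rab9* was at the floor in *mid* (60.3) and read 118 in *yw*. *RabX2* read 138 in *mid* and was at the floor in *yw* (36). The genes at the floor on both arrays were *Rab9Fa*, *RabX5* and *RabX6*, the last with 24.2 in *mid* and 83.9 in *yw*.

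The Arl GTPases that were measured were both lower in *mid*, within 1.5-fold, beside 72.6% of all genes above the floor on both arrays. *Arl5*, of the Golgi, read 1061 in *mid* and 1533 in *yw*. *Arl8*, which positions lysosomes, read 201 in *mid* and 1.43-fold as much in *yw*. *Arl6*, of cilia, was at the floor on both arrays with 66.2 in *mid* and 58.4 in *yw*. *Arl6IP1*, an ER-shaping protein gene that is not a GTPase, had the most negative log2 fold change of all members, -0.82, with 658 in *mid* and 1159 in *yw*.

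**Figure D4:**
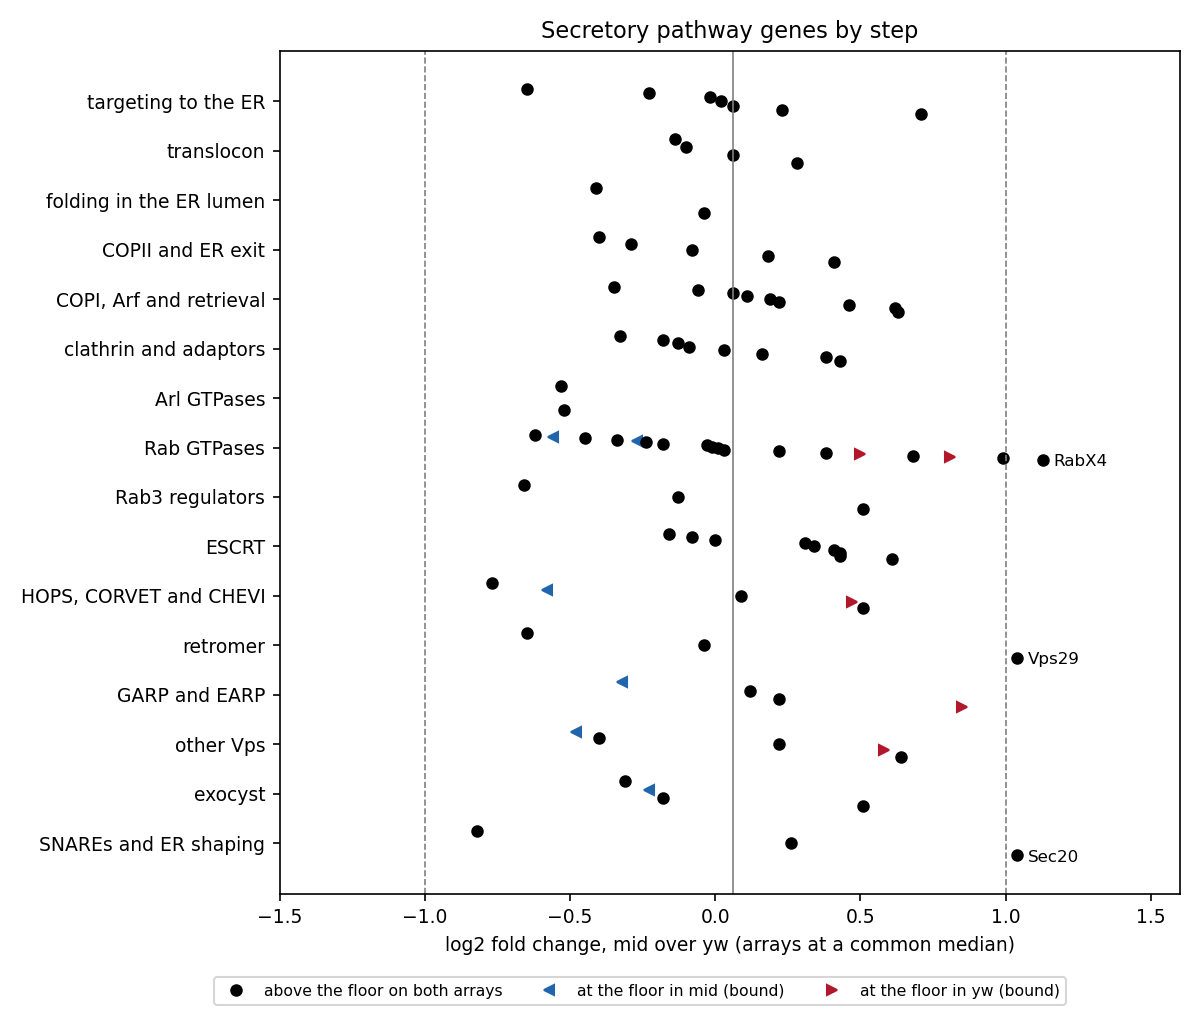
Log2 fold change, *mid* over *yw*, of each measured secretory pathway gene by step, with 1 array per genotype. Circles are genes above the floor on both arrays, triangles are lower bounds for genes at the floor on 1 array, dashed lines mark 2-fold, and the solid line marks the median of all measured genes (0.06). The named points *RabX4*, *Vps29* and *Sec20* lie beyond 2-fold, and no gene lies beyond it on the lower side.

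The ESCRT machinery sorts ubiquitinated cargo into multivesicular endosomes. Of its 9 genes with a Vps name, 7 had log2 fold changes above 0, with a median of 0.34 against 0.06 for all measured genes, and none differed by 2-fold. With the spiked controls that median was 0.02, against -0.24. The 9 ESCRT genes under other names went both ways, 5 above 0 and 4 below, with a median of 0.02, and over all 18 genes the median was 0.22. *Vps60* read 594 in *mid* and 388 in *yw* (1.53-fold). *Vps4*, the ATPase that takes ESCRT-III apart, read 631 in *mid* and 469 in *yw*. Of ESCRT-II, *Vps25* read 695 in *mid* and 515 in *yw*, and *Vps36* read 167 in *mid* and 125 in *yw*. Their partner *lsn*, which encodes Vps22, was level with 559 in *mid* and 574 in *yw*. *Vps37B*, of ESCRT-I, read 642 in *mid* and 506 in *yw*, whereas *Vps28*, of the same complex, read 746 in *mid* and 836 in *yw*. Of ESCRT-III, *Vps2* read 265 in *mid* and 213 in *yw*, *Vps24* read 846 in *mid* and 844 in *yw*, and *Vps20* read 437 in *mid* and 461 in *yw*. *CHMP2B*, also of ESCRT-III, read 302 in *mid* and 560 in *yw* (log2 fold change -0.89), and *shrb*, its main filament subunit, read 1508 in *mid* and 1209 in *yw*. *Hrs*, which recruits the machinery to endosomes, read 698 in *mid* and 521 in *yw*. Of these genes, *Vps60* and *CHMP2B* differed by more than the SD between probe sets of a gene.

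Retromer returns receptors from endosomes to the Golgi and the plasma membrane. Over subunits above the floor on both arrays, it held the widest spread of the complexes examined. Genes with bounds were left out of that ranking. *Vps29* read 717 in *mid* and 348 in *yw* (2.06-fold higher). *Vps26* read 253 in *mid* and 397 in *yw*, a log2 fold change of -0.65, and *Vps35*, the subunit that holds both, read 382 in *mid* and 393 in *yw*. *Vps29* and *Vps26*, the highest and lowest subunits, lay 1.69 apart on the log2 scale, each from a single probe set. The SD of 0.53 between probe sets of a gene describes single log2 fold changes, not a gap between genes. The gap of *Vps29* and *Vps26* was 1.67 after quantile normalisation and 1.68 after loess.

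Tethering genes were dimmer and more often had bounds. *Vps39*, a HOPS subunit for fusion with lysosomes, read 172 in *mid* and 293 in *yw* (log2 fold change -0.77), while *Vps16A*, of the HOPS core, read 251 in *mid* and 176 in *yw*. *Vps8*, of CORVET, read 233 in *mid* and 219 in *yw*. *Vps16B* and *Vps33B*, partners in a complex of endosome maturation, lay on opposite sides, *Vps16B* at the floor in *mid* (95.2) with 146 in *yw*, and *Vps33B* with 135 in *mid* and at the floor in *yw* (31.2). Of the GARP and EARP tethers, *Vps53* read 176 in *mid* and was at the floor in *yw* (77.9), at least 1.8-fold higher. *Vps51* read 179 in *mid* and 154 in *yw*, *Vps52* read 200 in *mid* and 184 in *yw*, and *Vps50* was at the floor in *mid* (90) with 122 in *yw*. Of the exocyst, which tethers vesicles at the plasma membrane, *Sec8* read 1150 in *mid* and 808 in *yw* (1.42-fold). *Sec5* read 284 in *mid* and 351 in *yw*, and *Sec10* read 330 in *mid* and 374 in *yw*. *Sec3* was at the floor in *mid* (94.1) with 114 in *yw*, and *Sec15* was at the floor on both arrays.

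Among the remaining genes, *Sec20*, a SNARE of retrieval from the Golgi to the ER, read 273 in *mid* and 133 in *yw* (2.05-fold higher). *Sec22*, a SNARE between ER and Golgi, read 585 in *mid* and 489 in *yw*. *Vps13*, a lipid transfer protein gene, read 1133 in *mid* and 726 in *yw* (1.56-fold), and *Vps13D*, of the same family, read 173 in *mid* and 149 in *yw*. *Vps13B* read 146 in *mid* and was at the floor in *yw* (64.6). *Vps15*, the regulatory subunit of the endosomal lipid kinase, read 236 in *mid* and 311 in *yw*, and *Vps45*, a partner of SNAREs, was at the floor in *mid* (61.4) with 136 in *yw*.

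Genes that work with these members were taken from 7 lists, with 122 measured genes in all. By their brightest probe sets, 9 were more than 2-fold higher (7.38%) and 2 lower (1.64%), beside 5.65% and 4.53% of all measured genes. The 9 include *nuf*, whose probe sets oppose each other, and without it 8 were higher. Regulators of Arf and Rab GTPases held 6 of these (6 of 22 measured, 27.3%), although the median of that list was 0.12. With the spiked controls the count was 2, beside 2.64% of all measured genes. By the median over its probe sets, *siz* was not called. *strat*, which encodes a chaperone-like factor for Rab activation, read 556 in *mid* and 201 in *yw* (2.76-fold). *siz*, an Arf exchange factor gene, read 8763 in *mid* and 3980 in *yw* (2.2-fold) by its brightest probe set. Another of its probe sets went the opposite way, at the floor in *mid* (48.4) with 111 in *yw*, and the last was at the floor on both arrays. The higher call of *siz* rests on the brightest probe set alone. *drongo*, which encodes an Arf GTPase-activating protein, read 1090 in *mid* and 538 in *yw* (2.03-fold). *plx*, with a domain of Rab GTPase-activating proteins, read 565 in *mid* and 273 in *yw* (2.07-fold). *Evi5*, of the same class, read 250 in *mid* and was at the floor in *yw* (84.8), at least 2.56-fold higher. *Rabex-5*, a Rab exchange factor gene, read 213 in *mid* and was at the floor in *yw* (49.3), at least 2.18-fold higher. *Rbsn-5*, which encodes an endosomal Rab effector, was the gene lower in *mid*, with 128 against 263 in *yw* (log2 fold change -1.04). Of the general regulators, all within 1.5-fold, *Gdi*, which extracts Rab proteins from membranes, read 2102 in *mid* and 2626 in *yw*, and *Rep*, which presents them for prenylation, read 1007 in *mid* and 891 in *yw*.

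In each of the other lists, at most 1 gene was more than 2-fold higher and at most 1 lower. Among all measured genes 5.65% were higher and 4.53% lower. *alphaSnap*, the adaptor that recruits NSF to SNAREs, read 1062 in *mid* and 444 in *yw* (2.39-fold), the 1 gene of 16 measured SNAREs and fusion factors to do so. *EndoA*, endophilin of synaptic endocytosis, read 264 in *mid* and was at the floor in *yw* (65.9), at least 2.71-fold higher. *wls*, needed to carry Wnt proteins to the surface, was at the floor in *mid* (51.9) and read 319 in *yw*, a log2 fold change of -1.71 or below. They were the 2 of 25 measured ESCRT, HOPS and endocytic partners past 2-fold. *nuf*, which encodes a Rab effector, had probe sets that opposed each other, 2149 in *mid* and 1024 in *yw* by the brighter and 195 in *mid* and 413 in *yw* by the other, so no direction is given. It was the 1 gene called of 25 measured genes of TRAPP, COG and golgins. None of 11 genes of the signal peptidase and of glycosylation, none of 17 ER chaperone and quality control genes and none of 7 p24 and other cargo receptor genes differed by more than 2-fold. The ER chaperone gene *Gp93* read 3312 in *mid* and 2906 in *yw*, and *Ero1L*, the oxidase that recharges Pdi, read 631 in *mid* and 372 in *yw*.

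The collagen and matrix cargo genes examined were mostly higher in *mid*. Of 11 genes of collagen and secreted matrix, 10 had log2 fold changes above 0, where 4210 of all 7682 measured genes did. The median of the 11 was 0.49, against 0.06 for all measured genes. With the spiked controls it was 0.16, against -0.24. Of the 11, 1 was more than 2-fold higher in *mid* (9.09%, beside 5.65% of all measured genes). *trol*, perlecan, read 3276 in *mid* and 1282 in *yw* (2.55-fold). *Col4a1*, collagen IV, read 13807 in *mid* and 8764 in *yw*, and *LanB2*, a laminin chain, read 1726 in *mid* and 919 in *yw* (1.88-fold). Hemocyte markers include *Col4a1* and *vkg*, and the 5 other measured ones had a summed signal of 1669 in *mid* and 1413 in *yw*. Among them *NimC1* read 292 in *mid* and was at the floor in *yw* (64.5), *Hml* read 519 in *mid* and 677 in *yw*, and *lz*, outside the 5, did not exceed the floor on either array. Of the other marker lists, 3 of 6 epidermal cuticle genes (*TwdlD*, *Edg91* and *Cpr65Ea*), 1 of 5 trachea genes (*serp*), 1 of 2 fat body genes (*srp*) and 2 of 5 muscle genes (*sls* and *bt*) passed 2-fold on the higher side in *mid*, while none of 3 salivary gland genes did, beside 5.65% of all measured genes. With the spiked controls the higher counts were 2 for cuticle and 0 for trachea, fat body and muscle, beside 2.64%. Of 5 midgut enzyme genes, 3 (*Amy-d*, *Jon74E* and *Jon25Bi*) were more than 2-fold lower in *mid*, beside 4.53% of all measured genes. With the spiked controls 3 were, beside 9.27%. All 5 had log2 fold changes below 0, with a median of -1.15. The part of tissue content in the values of the pathway genes was not tested. Of 10 listed regulators of secretory genes, 7 had a probe set with a single gene name and 5 were measured. None of the 5 differed by more than 2-fold. *CrebA* and *Xbp1* were not among the 7, so no value is given for them. *Atf6*, which encodes a membrane-bound factor of the unfolded protein response, read 294 in *mid* and 194 in *yw*. *sage*, a salivary gland factor gene, read 186 in *mid* and 132 in *yw*. *crc*, the ATF4 gene, read 11540 in *mid* and 11491 in *yw*.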

How the data were processed

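The values deposited by the authors are linear signal intensities, 1 per probe set, and the submitters' processing notes name MAS5 as the tool. For its version and scaling target, the entry is: not given in the sources used here. Precision is limited by the number of arrays, 1 per genotype. No p-value was used here, and genes are called by fold change alone.

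A platform annotation table gave 1 symbol to 12444 probe sets, several to 327 and none to 1239. Symbols were updated through a RefSeq gene table by gene identifier (12394), symbol (4) or unique synonym (38), and 8 were kept as given. The *mid* array was scaled to the *yw* median, and the floor was set at the 40th percentile. The brightest probe set stood for a gene, and log2 fold changes were *mid* over *yw*. The members, the step, pathway and marker lists, and the genes named from them were chosen with earlier results of these data known. The text names all members, list genes beyond 2-fold and some further examples picked after their values were seen. From the ER chaperone and Arf and Rab regulator lists, 1 symbol each that named an unrelated gene was removed afterwards, and the Vps genes were split into complexes once the member names were seen. The calls were run on simulated data with changes well above 2-fold in bright probe sets. That run does not bear on dim genes or on those just past 2-fold. The alternatives for scaling were none, quantile normalisation, loess (span 0.3) and the spiked controls. Those for the floor were no floor, the 20th percentile and the 60th. Thresholds of 1.5-fold and 3-fold and the median over probe sets were tried too. Scaling both arrays to an equal mean over their central 96% was added after the data were seen, as were all alternative counts of Arf and Rab regulators and of marker genes and the counts of ESCRT genes under other names. Sequences and coordinates were not used here. Scripts ran in Python 3.11.15 with pandas 2.3.3 and numpy 2.4.6. Loess came from statsmodels 0.14.6, and plots from matplotlib 3.10.9.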

Additional observations from a re-analysis of the deposited data

How the results depend on the processing

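The count of 3 secretory pathway genes more than 2-fold higher in *mid* depended on scaling, as the genes lay near the threshold. It was 1 (*RabX4*) with quantile normalisation, loess or the equal mean of central values, 0 with the spiked controls and 0 with values as deposited. In those settings, in that order, 4.67%, 4.71%, 4.29%, 2.64% and 0.225% of all measured genes were higher. The count lower, 0 after median centring, was 2 (*Arl6IP1* and *Vps39*) with the spiked controls and 82 as deposited, where 9.27% and 76.2% of all measured genes were lower, against 2.2% and 88.2% of the members. The median of the members was -0.08 with loess, -0.09 with the equal mean of central values, -0.30 with the spiked controls and -1.67 as deposited, where the median of all measured genes was -0.02, -0.05, -0.24 and -1.52. As deposited, *RabX4*, *Sec20* and *Vps29* were at -0.66, -0.76 and -0.75, the shift of the whole array included. Among all measured genes, 55.5% of calls were higher after median centring, 48.6% with quantile normalisation, 47.8% with loess, 43.3% with the equal mean of central values, 22.1% with the spiked controls and 0.295% as deposited.

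With the floor at the 20th percentile, or with none, 9 members were higher and 4 lower, the added genes being dim, where 9.14% and 9.36% of all measured genes were called at the 20th percentile and 11.2% and 13.1% with no floor. With the floor at the 60th percentile 1 (*Vps29*) was higher, where 4.31% of all measured genes were. At 1.5-fold, 12 were higher and 6 lower, where 16.7% and 12.8% of all measured genes were called. At 3-fold 0 were higher, where 1.31% of all measured genes were. Neuron markers higher numbered 3 of 4 after median centring (beside 5.65% of all measured genes) and 1 with the spiked controls (2.64%). They numbered 2 with quantile normalisation (4.67%), loess (4.71%) or the equal mean (4.29%). Arf and Rab regulators higher numbered 3 of 23 with quantile normalisation, beside 4.67% of all measured genes. They were 4 of 22 with loess (beside 4.71%) or the equal mean (4.29%) and 2 of 22 with the spiked controls (2.64%). With the floor at the 20th percentile 7 of 23 were higher (9.14%), with none 7 of 23 (11.2%), and at the 60th 4 of 15 (4.31%). The median over probe sets gave 5 of 22 (5.43%), and 1.5-fold gave 7 of 22 (16.7%). As deposited (0.225%) and at 3-fold (1.31%) 0 were higher. The median over probe sets left the same 3 members called. No member's difference has a replicate, and genes at the floor on 1 array have bounds only.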
